A study of Mus musculus with 36 samples.

Results

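The transcripts of the 3 TET enzymes (Tet1, Tet2 and Tet3) and of thymine DNA glycosylase (Tdg) were followed during the differentiation of Xmas mouse embryonic stem cells (mESCs). They were chosen by gene symbol, which gives 4 of the 25965 genes in the expression table, and all 4 were among the 14612 genes tested, those with at least 1 RPM (a read per 1000000 reads) in at least 4 of the 36 libraries. In these female C57/Bl6 cells GFP reports from one X chromosome and mCherry from its homologue. Every group came from cells derived with this genotype, and no further allele or agent was compared. The paper describes an increase in culture of cells with a single reporter on, which it takes as likely XO. The number of X chromosomes in each library was not tested. Cells grown in 2i+LIF, which holds mESCs in the naive state, formed day 0, and differentiation followed a stepwise change into the serum medium DME HiHi with RNA taken on each day up to day 8. Each day had 4 libraries, 1 from each of 4 cultures: line X14 labelled double (replicate 1), X14 labelled single (replicate 2), X18 labelled double (replicate 3) and X18 labelled single (replicate 4). What double and single stand for is not given by the labels, so the words serve as names only, and p-values measure the spread among libraries of these 4 cultures.

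TET enzymes are dioxygenases that use iron and alpha-ketoglutarate to oxidise methylcytosine stepwise to hydroxymethylcytosine, formylcytosine and carboxylcytosine. TDG cuts the last 2 of these bases out of DNA, and base excision repair fills the gap with an unmodified cytosine, so that together they form a route of active DNA demethylation. TET1 and TET3 have forms with a CXXC domain that binds CpG-rich DNA, while TET2 lacks such a domain and its former CXXC part is encoded by the neighbouring gene Cxxc4. In mouse embryos Tet3 is known for its role in the zygote, and Tet1 and Tet2 for their expression in naive mESCs.

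The genes lie on mm10 as follows in the table. Tet1 (ENSMUSG00000047146) spans chr10:62804570-62899118 on the minus strand, Tet2 (ENSMUSG00000040943) chr3:133463679-133544390 on the minus strand, Tet3 (ENSMUSG00000034832) chr6:83362373-83441678 on the minus strand and Tdg (ENSMUSG00000034674) chr10:82629828-82650799 on the plus strand. The merged exons recovered from the values were 14710 bases for Tet1, 9179 for Tet2, 11086 for Tet3 and 5374 for Tdg, so that the TET mRNAs are long and Tdg is shorter. GENCODE M21 gives the same 5374 bases for Tdg, and gives 15457, 16870 and 16695 bases for Tet1, Tet2 and Tet3 with 5′ ends that lie further out, at 62908996, 133545139 and 83459084. The last 367 bases of Tdg overlap the end of Glt8d2 on the other strand, a gene with 5 reads over all 36 libraries. The pseudogene Tdg-ps, listed as Gm5806, had 2 reads over all libraries, against 1089 for Tdg, and the second pseudogene Tdg-ps2 was not analysed here.

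The RefSeq promoter windows of the genes (GRCm38.p6, mostly upstream of the start of transcription) are shown because CpG is the main site of the methylation that these enzymes act on. All 4 genes matched a window. Each is written 5′ to 3′ on the strand of its gene, with every CG in capitals.
Tet1, chr10:62887275-62887574, minus strand: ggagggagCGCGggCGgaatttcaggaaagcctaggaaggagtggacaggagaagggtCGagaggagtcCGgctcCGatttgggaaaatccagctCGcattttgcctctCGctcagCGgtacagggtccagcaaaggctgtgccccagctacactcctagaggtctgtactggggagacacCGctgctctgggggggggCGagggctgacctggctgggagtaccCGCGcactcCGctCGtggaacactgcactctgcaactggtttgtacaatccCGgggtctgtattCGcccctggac
Tet2, chr3:133544341-133544640, minus strand: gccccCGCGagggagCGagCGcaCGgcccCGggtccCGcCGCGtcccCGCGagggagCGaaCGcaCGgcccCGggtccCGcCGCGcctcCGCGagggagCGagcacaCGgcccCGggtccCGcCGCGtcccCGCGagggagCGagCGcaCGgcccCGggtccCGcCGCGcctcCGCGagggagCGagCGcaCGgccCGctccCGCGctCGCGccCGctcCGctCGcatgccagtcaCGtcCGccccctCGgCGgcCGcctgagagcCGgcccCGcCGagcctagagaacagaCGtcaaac
Tet3, chr6:83441629-83441928, minus strand: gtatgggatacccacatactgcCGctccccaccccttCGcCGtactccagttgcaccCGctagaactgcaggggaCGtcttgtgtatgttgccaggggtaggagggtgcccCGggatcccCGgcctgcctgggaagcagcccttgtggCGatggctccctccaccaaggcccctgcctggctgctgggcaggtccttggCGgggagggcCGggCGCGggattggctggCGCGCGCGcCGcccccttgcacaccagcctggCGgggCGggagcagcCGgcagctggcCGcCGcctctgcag
Tdg, chr10:82629588-82629887, plus strand: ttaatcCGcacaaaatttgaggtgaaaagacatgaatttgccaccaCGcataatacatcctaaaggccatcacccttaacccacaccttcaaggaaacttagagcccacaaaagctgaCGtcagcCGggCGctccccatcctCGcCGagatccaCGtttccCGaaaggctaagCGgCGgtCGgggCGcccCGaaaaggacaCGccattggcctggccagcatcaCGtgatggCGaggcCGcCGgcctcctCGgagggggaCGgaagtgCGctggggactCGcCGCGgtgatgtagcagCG

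The window of Tet2 was by far the densest of the 4, with 57 CpG and 81.3% G and C, a count above that of 99.85% of the 32851 RefSeq windows. It is visible as runs of capitals through most of the sequence. Tdg held 26 CpG, Tet3 22 and Tet1 17, above 83.1%, 76.9% and 68.6% of windows, whose median was 7. On both strands, the GC box GGGCGG was found in the windows of Tet1, Tet2 and Tet3 (35.7% of all windows), the CCAAT box CCAAT in those of Tet3 and Tdg (37.4%), and the palindromic E-box CACGTG in that of Tdg (7.15%). The TATA box TATAAA was in none of the 4 (13.6% of all windows). The windows of Tet2, Tet3 and Tdg sit at or within 10 bases of the 5′ end of the gene in the table, but that of Tet1 sits 11794 bases inside it, at a start that GENCODE M21 also lists. RNA-seq of whole exons does not separate these starts.

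The libraries held 612740 to 2445826 reads in genes, and the members had few of them: a median of 205 reads for Tet1, 39.5 for Tet2, 31 for Tdg and 27.5 for Tet3. A floor of 3 reads was 1.04 to 3.90 RPM. The library labels had an exception before any comparison. The balance of X-linked against autosomal genes was higher for double than for single in 17 of 17 other pairs of the same line and day, by 0.19 to 1.17 on the log2 scale, but the X14 libraries of day 0 had -0.78 for double and 0.51 for single, so results that rest on them are also given without them. Whether the 2 libraries were exchanged was not tested. An exchange between them would leave the day 0 means and the main comparisons of days unchanged, since those fits hold no label. Leaving them out of these comparisons shows only how far a result rests on them, and it leaves day 0 with X18 alone. Long genes also moved between libraries: the median of the 1433 genes with 8000 bases of exon or more, the TET genes included, lay between -0.68 and 0.54 (log2, relative to all genes tested), lowest in X18 double on day 0, X18 single on day 1 and X14 double on day 5, the shallowest library. Day medians were -0.42 on day 0 and 0.25 on day 6. The main changes are therefore also given with this trend on exon length removed, and its part in them was not tested.

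**Figure D1:**
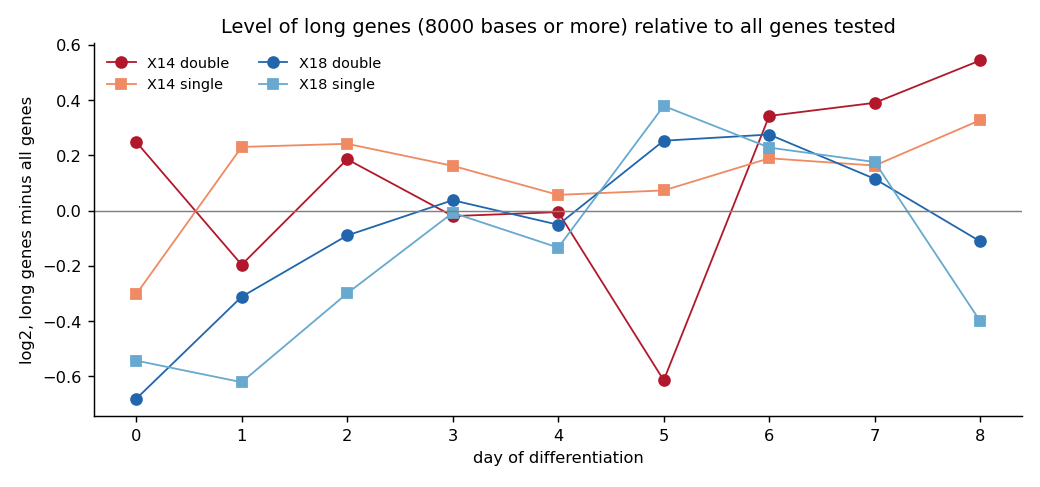
Median log2 deviation of 1433 long genes (8000 bases of exon or more) minus that of all 14612 genes tested, by day, 1 point per library and 1 line per culture. X14 double drops to -0.61 on day 5 and the X18 cultures are at -0.68 and -0.54 on day 0, while days 3 and 4 lie close to 0.

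All 4 genes changed over the course. The F test over the 9 days gave an adjusted p of 1.42e-06 for Tet1, 2.49e-10 for Tet2, 0.00101 for Tet3 and 0.00539 for Tdg (limma), where 65.2% of all genes tested passed. They moved in different ways: Tet1 was higher on day 3 and lower on day 8 than on day 0, Tet2 fell between days 3 and 4, and Tet3 and Tdg rose. On day 4, 3 of the 4 were called against day 0 (adjusted p under 0.05 over all genes, with no minimum fold), where 25.8% of all genes were called. On day 8 all 4 were called, where 45.7% of all genes were. On days 1, 2, 3, 5, 6 and 7, where 0, 0, 2, 2, 3 and 3 members were called by limma (0, 3, 3, 3, 3 and 4 at an unadjusted p under 0.05, and 0, 0, 1, 2, 3 and 3 by voom), the share of all genes was 0.0684%, 4.29%, 13.4%, 35.8%, 44.3% and 46.3%. Without the X14 libraries of day 0 the log2 changes on day 8 were -1.35 for Tet1, -2.59 for Tet2, 4.09 for Tet3 and 1.39 for Tdg, all called (adjusted p = 0.0347, 4.71e-04, 9.44e-06 and 0.00333). Without them Tet3 changed by 2.64, 2.95, 3.76, 2.50, 3.44 and 3.90 on days 2 to 7 and Tdg by 1.43, 1.41, 1.67, 1.54, 2.01 and 1.72, all called (adjusted p of 1.78e-05 to 0.00362 for Tet3 and 7.62e-05 to 0.00560 for Tdg), so that days 2 and 5 of Tet3 and days 2 and 3 of Tdg gained a call. Day 0 is then X18 double and X18 single alone, with 5 and 0 reads of Tet3 and 4 and 14 reads of Tdg. The larger changes and the gained calls rest on these few reads. With the trend on exon length removed the changes on day 8 were -2.36 for Tet1, -3.43 for Tet2, 2.48 for Tet3 and 0.71 for Tdg, of which that of Tdg was not called (adjusted p = 1.67e-07, 6.47e-09, 1.14e-04 and 0.0588). Because these are bulk samples, fewer cells that carry a transcript and less of it per cell cannot be told apart.

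**Figure D2:**
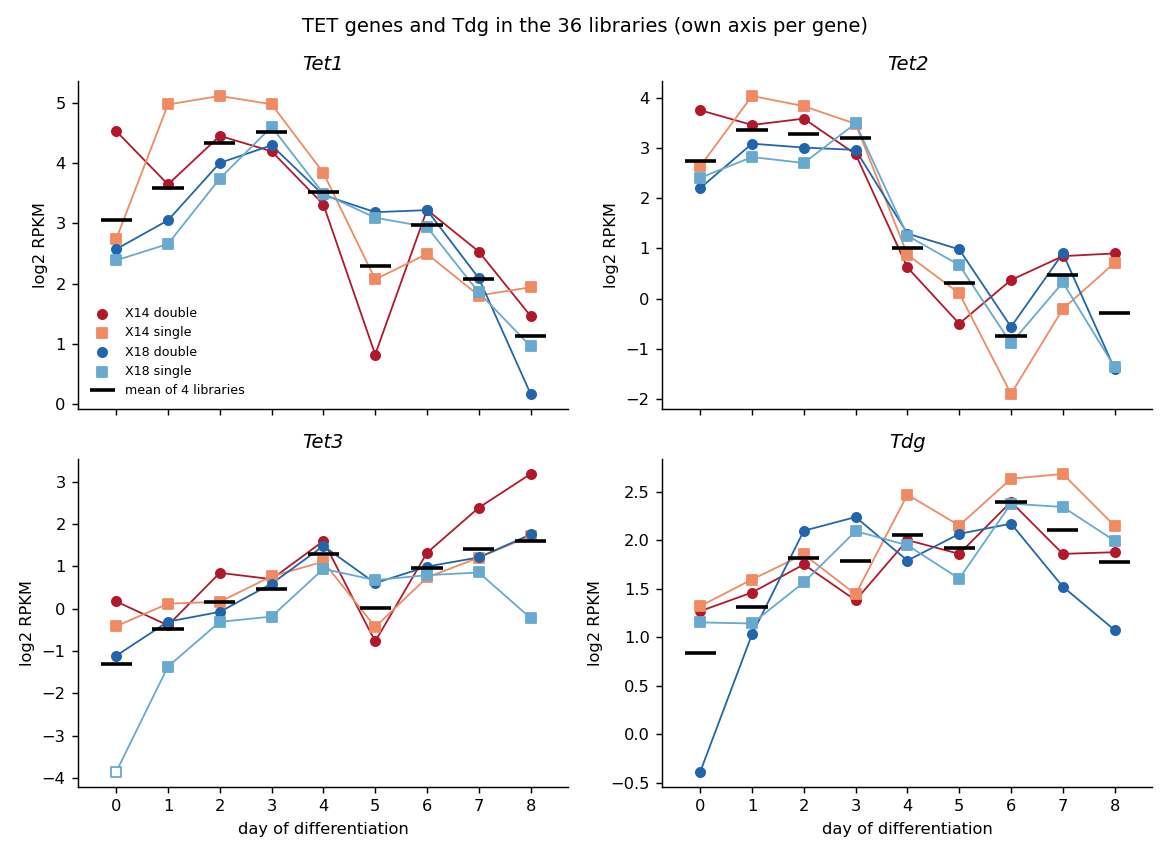
Level of Tet1, Tet2, Tet3 and Tdg (log2 RPKM, a different axis range for each gene) by day, with 1 point per library, 1 line per culture and a black bar for the mean of 4 libraries. The open square is the X18 single library of day 0, which had no Tet3 read and is drawn at the deposited value for 0.9 read. Tet2 falls in all 4 cultures from day 3 to day 4, and Tet1 reaches its lowest mean on day 8.

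By day means of RPKM, Tet1 was the most abundant of the 4 up to day 6, although Tet2 was above it in X18 single on day 0 and in both X18 libraries of day 1, and Tdg in both X14 libraries of day 5 and in X14 single on day 6. On day 0 it was at 23.1 RPKM (RPM per kilobase of exon) in X14 double, 6.67 in X14 single, 5.94 in X18 double and 5.22 in X18 single, so that 1 library lay far above the other 3. On day 3 the same cultures had 18.3, 31.4, 19.6 and 24.3 RPKM, a mean of 23.4 ± 5.93 (SD, n = 4). As labelled, every culture but X14 double was higher on day 3 than on day 0, and X14 double on day 0 is one of the libraries whose X-linked balance goes against the label. The fitted rise was 1.46 on the log2 scale (SE 0.47, adjusted p = 0.0358), and 2.04 without the X14 libraries of day 0 (adjusted p = 0.00376). On day 2 the change of 1.27 was not called (adjusted p = 0.101) and was 1.85 without them (0.00852). On day 8 they had 2.75, 3.83, 1.12 and 1.94 RPKM, a mean of 2.41 ± 1.16 (SD, n = 4), and all 4 lay under every library of day 0 and of day 4. The fall from day 0 to day 8 was 3.80-fold (log2 change -1.92, SE 0.47, adjusted p = 0.00114), and that from day 4 to day 8 was 5.26-fold (log2 change -2.40, adjusted p = 1.53e-04; -2.51 with the length trend removed), where 32.8% of all genes were called.

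From day 3 to day 8 Tet1 came down, but not evenly. Every library of day 4 lay under every library of day 3. That step was not called (log2 change -0.99, unadjusted p = 0.0426, adjusted p = 0.291, limma). The mean was 5.89 RPKM on day 5 and 7.98 on day 6, a step that was not called either (adjusted p = 0.369). On day 4 its libraries held 9.92, 14.3, 11.1 and 11.2 RPKM in the order of the replicate numbers, close to one another. The change from day 0 was not called (log2 0.47, 95% interval -0.48 to 1.43, adjusted p = 0.50) and varied with the day 0 libraries: it was 1.05 without those of X14 (adjusted p = 0.118), 1.002 in X18 alone (0.0223, called) and -0.060 in X14 alone, a difference between lines that was not tested. On day 5 X14 double had 1.77 and X14 single 4.20 RPKM, against 9.09 and 8.53 in X18, and these X14 libraries hold 20 and 75 reads of Tet1. With the length trend removed the change from day 0 was -1.17 on day 5 and -1.60 on day 7 (adjusted p = 0.00309 and 8.42e-05), where the deposited values gave -0.76 (0.209) and -0.99 (0.0832). The rise on day 3 was smaller with the trend removed (1.04, adjusted p = 0.0221) and lost its call without replicate 2, 3 or 4 (adjusted p 0.164 to 0.259), without a filter (0.0595), after quantile normalization (0.0532) and in a fit of those 2 days (0.0951). In order of the means, day 3 stood highest, followed by days 2, 1, 4, 0, 6, 5, 7 and 8, and the ranges of all 8 neighbouring days in this order overlapped.

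Tet2 had the sharpest single step. From day 0 to day 3 its day means lay between 7.39 and 10.7 RPKM, and none of days 1 to 3 was called against day 0 (log2 changes 0.45 to 0.60). On day 3 the 4 cultures held 7.34, 11.2, 7.78 and 11.2 RPKM, and on day 4 they held 1.54, 1.83, 2.45 and 2.38 RPKM, with no overlap. This fall of 4.56-fold (log2 change -2.19, SE 0.49, adjusted p = 0.00345) was the only change of a member between consecutive days to be called (the step from day 0 to day 1 included), and 5.63% of all genes were called at that step. Tet1 also had an unadjusted p under 0.05 at the step to day 4 and was not called there. At the other steps from day 1 to day 8 the share of all genes called was 0.0411%, 0.198%, 16%, 13.9%, 1.3% and 0.5%, with 0 members called at any of them by limma or voom and 4 changes at an unadjusted p under 0.05 (Tet1 and Tet3 at the step to day 5, Tet2 at those to days 6 and 7). The log2 change of Tet2 from day 3 to day 4 was -2.15 with the length trend removed.

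After day 4 Tet2 stayed low. The lowest mean was on day 6, at 0.70 ± 0.43 RPKM (SD, n = 4), 11.2-fold under day 0 (log2 change -3.49, SE 0.49, adjusted p = 6.74e-07; -4.03 with the length trend removed), and its 4 libraries held between 2 and 21 reads. On day 8 the libraries had 1.87 RPKM in X14 double, 1.64 in X14 single, 0.38 in X18 double and 0.39 in X18 single, against 13.5, 6.20, 4.59 and 5.30 on day 0. All 4 cultures were lower, by 8.19-fold in the fit (log2 change -3.03, SE 0.49, adjusted p = 5.05e-06). Days 0 to 3 formed a high group and days 4 to 8 a low one, with a gap between 4.59 RPKM on day 0 and 2.45 on day 4 and within each the ranges of neighbouring days in the order of the means overlapped. The further fall from day 4 to day 8 (log2 change -1.30, adjusted p = 0.0378) was -2.65 in X18 alone and 0.06 in X14 alone. The X18 libraries of day 8 held 4 and 3 reads of Tet2, those of X14 33 and 31, and the difference between lines in this change was not tested. The call was lost without replicate 3 (-0.83, 0.338) or replicate 4 (-0.86, 0.303). The fall from day 0 to day 4 (log2 change -1.74, adjusted p = 0.00789) was -1.29 without the X14 libraries of day 0 and was then not called (adjusted p = 0.0801), and was -2.002 with the length trend removed (1.54e-04).

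Tet3 was the lowest of the TET transcripts at the start and rose. On day 0 the cultures held 1.13 RPKM in X14 double, 0.75 in X14 single and 0.46 in X18 double, from 27, 18 and 5 reads, and X18 single had no read, where 3 reads would be 2.56 RPM at the depth of that library. On day 4 they held 3.03, 2.16, 2.79 and 1.92 RPKM, every library above every library of day 0. The rise was 2.58 on the log2 scale (SE 0.61, adjusted p = 0.00187), with the absent reads of X18 single counted as 0.9 read, and 1.85 without that culture (adjusted p = 0.0106). With the length trend removed it was 2.28 (adjusted p = 7.45e-04).

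On day 8 the cultures spread widely, with 9.09 RPKM in X14 double, 3.29 in X14 single, 3.38 in X18 double and 0.86 in X18 single, a mean of 4.15 ± 3.49 (SD, n = 4). Each of the 4 was above the day 0 library of its own culture, but the ranges of the 2 days overlapped, since X14 double on day 0 lay above X18 single on day 8. The change from day 0 was 2.91 (log2, SE 0.61, adjusted p = 2.12e-04) and from day 4 it was 0.33 (95% interval -0.91 to 1.56, adjusted p = 0.73). Day 5 lay under day 4, with 0.59 and 0.74 RPKM in the X14 libraries, from 5 and 10 reads, and 1.52 and 1.60 in those of X18. The step from day 4 to day 5 was not called (log2 change -1.26, adjusted p = 0.1645, limma). The change from day 0 was then 1.32 (adjusted p = 0.0885), was called with the replicate as a block (adjusted p = 0.0440), and was 1.94 without the 2 X14 libraries of day 5 (adjusted p = 0.0422). It went from 0.25 without replicate 4 (adjusted p = 0.750) to 2.08 without replicate 1 (0.0108), and was 0.95 with the length trend removed (0.134). The change on day 3 (log2 1.77, adjusted p = 0.0488; 2.95 without the X14 libraries of day 0) lost its call under 10 of the alternatives, among them the length trend removed (1.41, 0.0517), scaling to the 75th percentile (0.0573), quantile normalization, voom (0.101) and each of replicates 2, 3 and 4 left out (0.139 to 0.283). In order of the means day 8 stood highest, followed by days 7, 4, 6, 3, 2, 5, 1 and 0, and the ranges of all 8 neighbouring days overlapped.

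**Figure D3:**
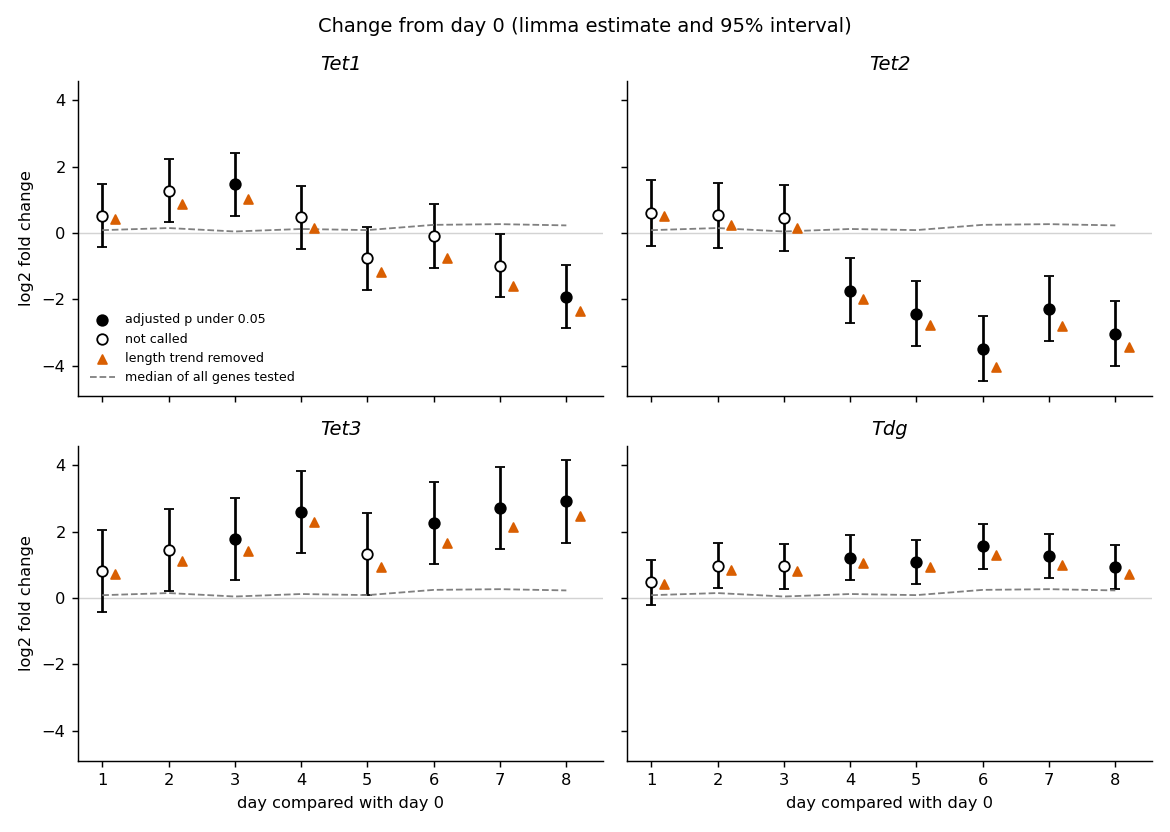
Log2 fold change of each gene on days 1 to 8 against day 0 with its 95% interval (limma, 4 libraries a day); filled points have an adjusted p under 0.05, triangles show the estimate with the length trend removed, and the dashed line is the median of all 14612 genes. From day 4 on every Tet2 point is filled and at -1.74 or below, and the triangles lie under the circles throughout.

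Together the 3 TET mRNAs summed to 18.2 ± 13.0 RPKM on day 0 and 34.2 ± 7.80 on day 3, then to 16.2 ± 1.60 on day 4 and, by day 8, 7.63 ± 4.67 (SD, n = 4 each). The day 0 mean was carried by X14 double, at 37.7 RPKM, and was 11.7 ± 1.68 (SD, n = 3) without it, under that of day 4. Their composition shifted, and it is given as a description with no test. On day 0 Tet1 made up 53.5% ± 5.67 and Tet2 43.3% ± 6.18 of the sum, with Tet3 at 3.18% ± 2.36 (SD, n = 4). On day 4 Tet1 had 71.7% ± 4.75, Tet2 12.7% ± 2.82 and Tet3 15.6% ± 4.30. On day 8 the share of Tet3 went from 66.3% in X14 double and 69.2% in X18 double to 37.5% in X14 single and 26.9% in X18 single. In each of the 4 cultures the share of Tet3 was higher on day 4 than on day 0 and higher again on day 8, and the lowest share on day 4 (11.8%) was above the highest on day 0 (5.52%). The level of Tet3 itself was higher on day 8 than on day 4 in 3 of the 4 cultures. In X18 single it was lower, at 0.86 against 1.92 RPKM, from 8 and 38 reads. With RPM in place of RPKM, so that longer transcripts count for more, the share of Tet3 was 2.89%, 12.9% and 46.4% on days 0, 4 and 8.

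**Figure D4:**
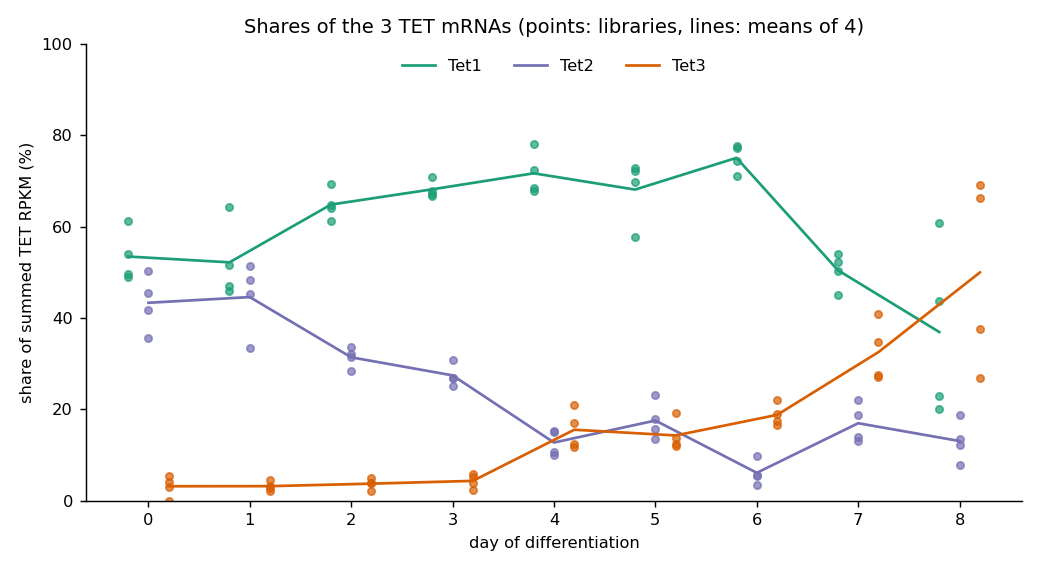
Share of Tet1, Tet2 and Tet3 in their summed RPKM (%) by day, with 1 point per library, lines through the means of 4 libraries and small horizontal shifts between genes. Tet2 falls from 43.3% on day 0 to 12.7% on day 4 while Tet3 goes from 3.18% to 15.6%, and the points of Tet3 spread widely on day 8.

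Tdg, the glycosylase that acts after the TET enzymes, rose against day 0 from day 4 on. On day 0 it was at 2.41 RPKM in X14 double, 2.50 in X14 single and 2.22 in X18 single, but at 0.77 in X18 double, where it had 4 reads. On day 4 the cultures held 4.00, 5.54, 3.46 and 3.86 RPKM, all above the libraries of day 0, and on day 6 they held 5.26, 6.20, 4.50 and 5.19, the highest mean (5.29 ± 0.70, SD, n = 4). The rise was 2.32-fold on day 4 (log2 1.21, SE 0.33, adjusted p = 0.00654) and 2.94-fold on day 6 (log2 1.55, SE 0.33, adjusted p = 3.07e-04). Without replicate 3, the culture with the low day 0 value, the rise on day 4 was 0.89 with an adjusted p of 0.0582.

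By day 8 the cultures had 3.67, 4.43, 2.10 and 3.98 RPKM, each above its own day 0 value, and the call was fragile. The change of 0.93 (log2, SE 0.33, adjusted p = 0.0205) stood beside a median of 0.23 for all genes tested. It was 0.34 after quantile normalization (adjusted p = 0.375), 0.71 with the length trend removed (adjusted p = 0.0588), and lost its call without replicate 2, 3 or 4 (0.76 to 0.97). On days 2 and 3 the changes of 0.98 and 0.95 were not called (adjusted p = 0.0746 and 0.0510), but were with the replicate as a block (0.0480 and 0.0337). Days 5 and 7 were called (1.08 and 1.26, adjusted p = 0.0104 and 0.00223), day 5 not without replicate 3 (0.62, 0.151) or without the X14 libraries of day 5 (0.99, 0.0608), day 7 not after quantile normalization (0.69, 0.0651), and neither in a fit of the 2 days compared (0.135 and 0.0584). In order of the means day 6 stood highest and days 1 and 0 lowest, and the ranges of all 8 neighbouring days overlapped.

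The libraries labelled double and single were compared at matched days. None of the 4 was called (limma with day and line; 1 had an unadjusted p under 0.05 and 1 was called by voom, both times Tet3), where 15.7% of all genes were called and 29% had an unadjusted p under 0.05. The nearest was Tet3, higher in the libraries labelled double by 0.66 (log2, SE 0.25, adjusted p = 0.0635), on 6 of 9 days in X14 and 8 of 9 days in X18. It was called under 8 of the alternatives, among them without the X14 libraries of day 0 (0.66, adjusted p = 0.0347), with the length trend removed (0.64, 0.0217), by voom (0.65, 0.0206) and with the culture as a random effect (0.00226, in a fit that called 37.4% of all genes), but within 1 line it was 0.45 in X14 (adjusted p = 0.479) and 0.87 in X18, not called in either. The label does not vary within a culture, yet the random effect lowered the SE from 0.25 to 0.17, so that fit was no stricter test of the label. With all of day 0 left out the difference was not called, and the 8 alternatives all keep the X18 single library of day 0 without a Tet3 read. In X18 the largest differences were 2.74 on day 0, against the library without a read, and 1.98 on day 8. In X14 they were 1.18 on day 7 and 1.47 on day 8. Marker lists moved with the label too: 6 of 8 naive, 3 of 7 trophoblast markers tested and 1 of 7 2-cell-like markers were called higher in double by limma. By voom 4 naive, 4 trophoblast and 1 2-cell-like markers were called higher. In these lists none was called lower by limma or voom (0 lower at an unadjusted p under 0.05). Other lists went the other way: 3 of 7 primed markers were called lower in double (4 by voom). So was 1 marker each of the general, primitive endoderm and neural lists, and none of these 4 lists had a marker called higher. The 2-cell-like markers summed to 70.1 RPM in X14 double and 84.4 in X18 double on day 8, against 0 in both libraries labelled single, and their part in the Tet3 difference was not tested.

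Tdg leaned the other way, with a difference of -0.28 (log2, double minus single, 95% interval -0.58 to 0.01, adjusted p = 0.196). It was lower on 9 of 9 days in X14 and on 6 of 9 in X18, was -0.29 without the X14 libraries of day 0 (adjusted p = 0.137), and was called with the culture as a random effect (0.0229), where 37.4% of all genes were. In that fit the SE of Tdg was also smaller than in the main fit (0.098 against 0.145). Tet1 and Tet2 differed by -0.08 (95% interval -0.52 to 0.36) and 0.19 (-0.27 to 0.65). In X14 Tet1 was lower in double on days 1 to 5 and 8, with -1.33 on day 1, but higher on day 0 by 1.79, the day on which the X-linked balance of the X14 libraries also turned. Between the lines, X18 minus X14 gave -0.35 for Tet1, -0.31 for Tet2, -0.64 for Tet3 and -0.24 for Tdg, with adjusted p of 0.223 to 0.455, where 0.0205% of all genes (3 genes) were called. Of the members, 0 were called by limma, 1 (Tet3) had an unadjusted p under 0.05 and 0 were called by voom, and 17.4% of all genes had an unadjusted p under 0.05.

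**Figure D5:**
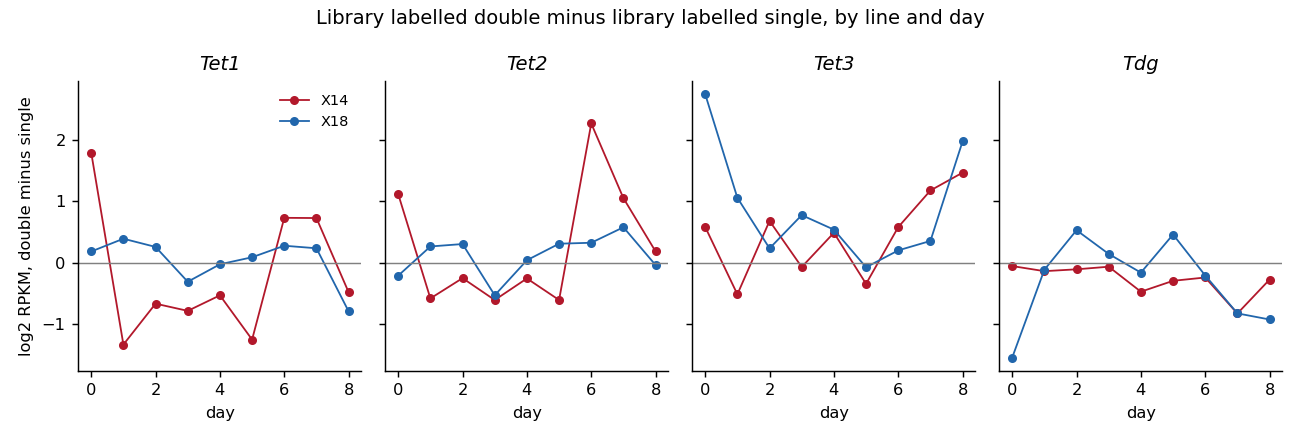
Difference in log2 RPKM between the library labelled double and that labelled single of the same line and day, for each gene, with X14 and X18 as separate lines. Tet3 is above 0 on 14 of 18 line and day pairs and Tdg below 0 on 15 of 18, while Tet1 and Tet2 in X14 swing between both sides.

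The change from days 1 and 2 to days 7 and 8 was compared between the labels and between the lines in a fit of 16 libraries, and no member was called in either (limma; 0 had an unadjusted p under 0.05, and 0 were called by voom). Of all genes, 2.81% were called between labels and 0.00684% between lines, and 18.1% and 3.72% had an unadjusted p under 0.05. Between labels the change of Tet3 was larger in double by 0.88 (95% interval -0.32 to 2.08, adjusted p = 0.442) and that of Tdg differed by -0.75 (interval -1.62 to 0.11, adjusted p = 0.347). Tet1 and Tet2 gave 0.26 and 0.51. Between the lines the differences were 0.52, -0.12, -0.52 and -0.20 for Tet1, Tet2, Tet3 and Tdg. These intervals span differences of more than 2-fold, so the depth and number of libraries did not allow a statement that the courses were alike.

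Genes that act with the members were read from lists, as counts called on day 8 against day 0 beside a median change of 0.23 over all genes, of which 29.2% were called higher, 16.5% lower and 52.6% had an unadjusted p under 0.05. Of 13 genes of base excision repair, 2 rose and 4 fell by limma (median -0.21), and 1 rose and 4 fell by voom. Neil2, a glycosylase that can act on oxidised bases, rose by 1.28 (SE 0.53, adjusted p = 0.0448) and Pcna, the sliding clamp, fell by 1.41 (SE 0.21, adjusted p = 1.57e-06). Of 7 other DNA glycosylases, 1 rose and 2 fell (median -0.65): Mpg rose by 0.80 (adjusted p = 0.0142), Ung, which removes uracil, fell by 1.46 (adjusted p = 2.27e-06), and Mbd4, which like TDG acts on G:T mismatches, fell by 0.84 (adjusted p = 0.0192). On day 4 none of these 20 repair genes was called by limma or voom, and 2 were higher and 2 lower at an unadjusted p under 0.05, where 16.3% of all genes were called higher, 9.42% lower and 37.4% had such a p. The day 4 changes nearest to the threshold were 1.35 for Neil2 (adjusted p = 0.0560) and -0.52 for Pcna (0.0663).

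Of the 6 GADD45 and deaminase genes tested of 7 listed, 2 rose and 1 fell by day 8 (median -0.42). Gadd45g, a growth arrest gene linked to demethylation, rose by 3.58 (adjusted p = 1.78e-05) and Apobec3 fell by 2.60 (adjusted p = 1.23e-08). Among the 13 tested of 14 TET partners, recruiters and modifiers, 2 rose and 6 fell (median -0.26). Nanog and Prdm14, pluripotency factors reported as partners of TET proteins, changed by -3.82 (adjusted p = 2.93e-08) and -5.15 (8.99e-07), while Cxxc5 rose by 0.91 (0.0131). Ogt, the glycosyltransferase that binds TET proteins, had a change of -0.19 (adjusted p = 0.671).

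Of 13 genes that make or use alpha-ketoglutarate or clear 2-hydroxyglutarate, which inhibits TET enzymes, none rose and 5 fell by limma (median -0.40), with 1 higher and 6 lower at an unadjusted p under 0.05 and 0 higher and 5 lower by voom. Idh1, which makes alpha-ketoglutarate in the cytosol, fell by 1.55 (adjusted p = 1.57e-08). Of 10 readers of modified cytosine 5 rose and 2 fell (median 0.76): Mbd2, which binds methylated DNA, rose by 1.95 (9.61e-05) and Hmces, listed as 8430410A17Rik, fell by 1.04 (7.31e-04). Of the 5 writers of DNA methylation, 3 rose on day 4 (median 3.53), where 16.3% of all genes were called higher: Dnmt3a, Dnmt3b and Dnmt3l, the de novo enzymes and their cofactor, rose by 3.53, 5.29 and 4.87 (adjusted p = 3.07e-08, 1.60e-10 and 2.76e-10), on the day on which Tet2 fell by 1.74. By day 8 Dnmt3b was still higher by 2.44 (5.83e-05), and Uhrf1 fell by 0.70 (0.0377).

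Over the 36 libraries Tet1 and Tet2 moved together (Pearson r = 0.76), while Tet3 had -0.08 with Tet1 and -0.34 with Tet2, and Tdg had 0.43 with Tet3 and -0.43 with Tet2. Within days, after each day mean was taken off, r was 0.79 for Tet1 and Tet2, 0.54 for Tet1 and Tet3 and 0.57 for Tet2 and Tet3. These points share libraries, depth and length effects: within days the relative level of long genes had r = 0.88 with Tet1, 0.79 with Tet2, 0.72 with Tet3 and 0.30 with Tdg.

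The genes most like each member were ranked by Pearson r over the 36 libraries among the 9399 genes that averaged 10 RPM or more, as a description. For Tet1 they were 2810474O19Rik (now Resf1, r = 0.90), Rest (0.90), D14Abb1e (now Tasor, 0.88), Heatr1 and Sall1 (0.88 each), and the most opposite were Atp6v1e1 (-0.91), Rab11a (-0.89) and Sdf2 (-0.88). For Tet2 they were Cdyl2 (0.95), Pias2 (0.94), Myst4 (now Kat6b, 0.93), Esrrb (0.92), a naive pluripotency factor, and Cobl (0.92), with Pdlim3, Tap2 and Syt13 opposite (-0.92 to -0.91). For Tet3 they were Med14 (0.88), Trrap (0.87), 1700017B05Rik, Whsc1l1 (now Nsd3) and Mlxip (0.87 each), with Commd1, Prmt7 and Bcas2 opposite (-0.89 to -0.85). The values for Tdg were lower, Hdgf (0.83), Zfp512, Spry1 and Lgr4 (0.81 to 0.80) and Samhd1 (0.80), with Brp44 (now Mpc2), Cib1 and Arl1 opposite (-0.77 to -0.75). The 95th percentile of r over the ranked genes was 0.67 to 0.71.

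Markers placed these values in the course. The 8 naive pluripotency markers all fell by day 4, and their summed level went from 822 to 2752 RPM on day 0 to 89.9 to 273 on day 4 and 57.1 to 282 on day 8. The 5 general markers still summed to 619 to 1293 RPM on day 8, against 2942 to 4191 on day 0. The 7 primed markers summed to 53.4 to 185 RPM on day 0 and 1802 to 3642 on day 4, the day of the fall in Tet2, and then 264 to 720 on day 8. The trophoblast list, 5 of 7 tested called higher, reached 2222 to 4684 RPM on day 8, from 79.1 to 131 on day 0, mostly as Krt18 (1742 RPM) and Krt8 (1226 RPM), keratins found in many epithelia, and Elf5 and Hand1 had no read on day 0. Fibroblast markers went from 0 to 10.7 RPM on day 0 to 40.5 to 79.7 on day 8, with 3 of 5 tested called higher and Lum and S100a4 at 0. Primitive endoderm markers went from 0 to 14.3 RPM to 31.3 to 86.5, with 3 of 8 tested called higher and Sox7, Cubn and Amn at 0. Neural markers were at 88.4 to 143 RPM on day 0 and 57.1 to 89.9 on day 8, with Sox1 and Neurog2 among those at 0. The 7 markers of a 2-cell-like state were at 3.24 to 20.5 RPM on day 0 and 0 to 84.4 on day 8, with 0 called by limma or voom and 2 higher at an unadjusted p under 0.05. The part of these cell types in the changes of the TET genes and Tdg was not tested.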

How the data were processed

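RNA-seq libraries of differentiating Xmas mESCs were single-end and were aligned to mm10 by the authors (TopHat2 2.0.12 per the submitters' processing notes) and quantified in SeqMonk. Whether counting used the strand is not given in the sources used here. The deposited values are on the log2 scale. They were read here as log2 RPKM, with 0 reads written as 0.9 read, although the paper describes the values of this course as log2 RPM. The exon lengths recovered on this reading equalled the merged exons of GENCODE M21 for 50.5% of the genes matched to it. Whole reads were recovered for 25961 of 25965 genes within 0.02 read, and for the other 4 by trying whole exon lengths. Recovered reads gave depth, RPM and RPKM, and precision covers counting error only.

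Deposited log2 values of 14612 genes (at least 1 RPM in at least 4 libraries) were fitted with limma 3.58.1 in R 4.3.3 (trend, two-sided), with day as a factor over all 36 libraries. Labels and lines were compared with day and the other term as covariates, and the difference in change between days 1 and 2 and days 7 and 8 as an interaction in 16 libraries. Benjamini-Hochberg adjustment covered all genes tested, and a gene was called at an adjusted p under 0.05. The fit was tested on simulated independent counts with the same dispersion for every gene and no culture, length or label effect, so that test does not cover such effects. Same-numbered samples share a line and label, so the numbers pair them. Their deviations correlated with a median r of 0.13 to 0.19 within a number and -0.07 between numbers. Alternatives were other filters, scalings, voom (limma) on recovered reads, a replicate block, each replicate left out and, chosen after seeing the data, single lines or labels in the comparisons of days, the X14 libraries of day 5 (and of day 0 in the comparisons of days) left out, and removal of a lowess trend on exon length. voom called 6902 genes on day 8 against day 0 and limma 6680.

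Named genes were the 4 members, list genes called on day 8 with the largest change each way that reached 10 RPM on either day, and genes ranked by Pearson r with a member. The lists cover base excision repair, DNA glycosylases, GADD45 and deaminases, TET partners, alpha-ketoglutarate metabolism, readers and writers of methylation, and markers of naive, general and primed pluripotency, fibroblast, primitive endoderm, trophoblast, neural and 2-cell-like cells. Members and lists were chosen with earlier results of these data known. Ogt, Mbd4, Nanog and the day 4 changes of Neil2, Pcna, Dnmt3a, Dnmt3b and Dnmt3l were named outside this rule, after their values were seen. Libraries of the same day differed by a chi-squared of at least 1.24 per gene, so none was a copy of another.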

Additional observations from a re-analysis of the deposited data

Results flagged for a closer look

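In 2 of the 36 groups of 4 libraries (4 genes on 9 days) 1 library lay far from the other 3, about as many as the 1 in 20 that chance gives. Tet1 on day 0 was at 4.53 log2 RPKM in the library labelled X14 double, from 734 reads, and between 2.39 and 2.74 in the other 3 libraries. The X-linked balance of this library (-0.78) goes against its label, as does that of X14 single on day 0 (0.51), and their part in the value was not tested. Tdg on day 0 was at -0.39 log2 RPKM in X18 double, from 4 reads, and between 1.15 and 1.32 in the other 3. No difference in change between labels or lines was called for any member.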

How the results depend on the processing

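Of 910 values recomputed under the alternatives, 805 kept their direction and their side of the threshold. This count does not measure robustness. Settings that only change the filter leave the estimate as it was, and results far from the threshold could hardly change side. Without a filter the Tet2 change from day 4 to day 8 was -1.30 and not called, by voom it was -0.99 and in a fit of those 2 days -1.30, neither called. In fits of 2 days the Tdg changes of 1.21 (day 4 against day 0) and 0.93 (day 8 against day 0) were not called, nor were those on days 5 and 7 (1.08 and 1.26), and that of 0.93 does not reach a log2 fold of 1. The Tdg change on day 8 was 0.34 after quantile normalization and 0.71 with the length trend removed, neither called. The Tet3 difference between labels became called with a mean of at least 10 RPM (0.66), scaling to the 75th percentile (0.69), quantile normalization (0.72), log2(RPM + 1) (0.63), voom (0.65), without the X14 libraries of day 0 (0.66) and with the length trend removed (0.64). It was not called with all of day 0 left out. With a replicate block as a random effect the label differences of Tet3 (0.66) and Tdg (-0.28) and the line difference of Tet3 (-0.64) were called, in a fit that called 37.4% of all genes between labels and 23.8% between lines. The SEs of these differences were smaller than in the main fit, although label and line do not vary within a replicate number, so it was no stricter test. The replicate block changed no other call than those given for days 2, 3 and 5 above.

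When 1 replicate was left out, Tdg ranged from 0.89 to 1.37 on day 4 and 0.76 to 1.04 on day 8 against day 0, and the Tet2 change from day 4 to day 8 from -1.82 to -0.83. That of Tet3 ranged from -0.094 to 0.82, and the label difference of Tet1 from -0.20 to 0.036. Against day 0, Tet1 ranged from -0.045 to 0.99 on day 1, -1.25 to 0.22 on day 5 and -0.33 to 0.32 on day 6, and Tet3 from 0.25 to 2.08 on day 5. The difference in change between labels ranged from -0.43 to 0.95 for Tet1. That between lines ranged from -0.044 to 1.08 for Tet1, -0.64 to 0.39 for Tet2, -1.14 to 0.094 for Tet3 and -0.74 to 0.34 for Tdg, and for Tet2 it was 0.11 by voom.

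Without the X14 libraries of day 0, Tet2 on day 4 was -1.29 and not called, and Tet1 on day 6 was 0.49. Without those of day 5, Tet1 on day 5 was 0.082. X14 alone gave on day 4 against day 0 -0.060 for Tet1 and, not called, 1.48 for Tet3 and 0.94 for Tdg. It gave 0.72 for Tdg on day 8 against day 0 and, from day 4 to day 8, -1.87 for Tet1, neither called, and 0.060 for Tet2. X18 alone gave 1.002 for Tet1 on day 4, called, -1.03 for Tet2 on day 4 and 1.15 for Tdg on day 8, not called, -0.44 for Tet3 from day 4 to day 8, and 0.036 for the label difference of Tet1, which was 0.018 without day 0. Libraries labelled double alone gave -0.16 for Tet1 on day 4 and, not called, -2.02 for Tet2, 2.01 for Tet3 and 1.45 for Tdg on day 4, 1.03 for Tdg on day 8 and -1.21 for Tet2 from day 4 to day 8. Those labelled single alone gave, not called, -1.46 for Tet2 and 0.97 for Tdg on day 4, -1.11 for Tet1 and 0.83 for Tdg on day 8, and -1.39 for Tet2 and -0.28 for Tet3 from day 4 to day 8. These subsets have 2 libraries a day. The cause of each change was not tested. Of all genes, 627 were called on day 2 against day 0, and 321 by voom, 334 without a filter, 1192 with the replicate block and 17 in a fit of those days alone. Depth limits Tet3, Tet2 and Tdg most, since their lowest libraries held 0, 2 and 4 reads.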
